A study of Mus musculus with 30 samples.

Results

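The 10 genes described here are *Trp53*, which encodes the transcription factor p53, and 9 genes that p53 is known to activate: *Mdm2*, *Ccng1*, *Cdkn1a*, *Eda2r*, *Phlda3*, *Trp53inp1*, *Zmat3*, *Sesn2* and *Ephx1*. They were chosen by their difference between P-Apex1KO and WT callus in these same libraries, out of 55416 gene IDs in the count table, because several were raised in the knockout. Their genotype differences are therefore given as a description, with no test. All 10 passed the low-count filter at each time point.

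The study asked how loss of *Apex1* in limb mesenchyme affects fracture repair, and sequenced total RNA from the fracture callus of 30 mice at 3, 6, 10 and 14 days post fracture (dpf). At 3-dpf the sample was the tibia cut out around the break, so it held other tissue as well. P-Apex1KO mice carried Prrx1-Cre and floxed *Apex1* on both alleles (Prrx1-Cre+;Apex1C/C). WT littermates in the study were of 3 kinds (Prrx1-Cre+/-;Apex1C/+, Apex1C/C and Apex1C/+). Some of the mice sequenced as WT may therefore have carried Cre and a single floxed allele, and the labels do not give this. The tibia was broken without stabilization at 7 to 12 weeks of age. There were 4 WT and 4 P-Apex1KO mice at 3-dpf, 5 and 3 at 6-dpf, 4 and 3 at 10-dpf, and 4 and 3 at 14-dpf. Prrx1-Cre acts in the limb bud mesenchyme and its descendants, so callus cells of other origin, such as blood cells and muscle fibers, keep *Apex1*, and in bulk RNA fewer cells of a type and less RNA per cell cannot be told apart. Males and females were mixed in every group except the P-Apex1KO group at 14-dpf, which was all female, beside 1 female among the 4 WT mice of that day.

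p53 is held at a low level by MDM2, which marks it for degradation, and is stabilized when DNA is damaged or the cell is under other stress. It then binds paired short motifs near its target genes and turns them on. The targets halt the cell cycle, promote or restrain cell death, support repair and metabolism, and, through *Mdm2* and *Ccng1*, switch p53 off again. APEX1 is the main endonuclease of base excision repair at abasic sites in DNA and also acts on the redox state of transcription factors.

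To show the motif itself, the 3000 bases on either side of the start of each gene's canonical transcript (GRCm39) were searched for the p53 response element, taken as 2 adjoining decamers of 10 bases. Each decamer had to hold a core that runs C, 2 bases of A or T, and G, with purines before it and pyrimidines after it, and at most 2 mismatches were allowed at the 12 positions outside the cores. Both strands were read. A match was present for 3 of the 10 genes. The capitals below mark the 4-base core of each decamer, and each sequence is written 5′ to 3′ along the strand given here. The *Cdkn1a* match lies at chr17:29309902-29309921, on the plus strand, at position -2836 from that start, and holds 1 mismatch. The *Ccng1* match, at chr11:40645763-40645782 on the minus strand, lies in an intron 356 bases past the start of the canonical transcript and also holds 1 mismatch. The *Zmat3* match, at chr3:32418480-32418499 on the minus strand, lies in an intron 1409 bases past that start and holds 0 mismatches.

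Cdkn1a: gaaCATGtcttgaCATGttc

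Ccng1: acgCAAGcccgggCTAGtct

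Zmat3: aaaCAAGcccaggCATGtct

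Among all 21614 protein-coding genes, 3.54% held a match in the same window, and 25.0% of 52 other p53 targets did. With at most 1 mismatch the shares were 0.703% of all genes and 7.69% of the other targets, against 3 of the 10 genes. None of 16 regulators of p53 held one. For the other 7 genes the search says only that these letters are not in this window. A match is a description of sequence and was not measured as a binding site.

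Libraries held 18334389 to 43111491 counts on genes. *Apex1* itself (chr14:51162177-51164642) was checked first, as CPM (counts scaled to a common library size, here after TMM scaling over the 30 samples), the unit of all levels below. At 6-dpf it was 20.7 to 28.9 CPM in WT and 15.1 to 15.9 CPM in P-Apex1KO mice, a log2 fold change of -0.67 (SE 0.11, edgeR adjusted p = 0.0071). At 10-dpf the log2 fold change was -0.65 (SE 0.13, edgeR adjusted p = 0.0278). At 14-dpf it was -0.29 (SE 0.19, edgeR adjusted p = 0.367), with no overlap between the groups, and it was -0.55 without the sex term and -0.01 with library size alone as scaling. At 3-dpf the libraries labelled P-Apex1KO had 18.4, 29.1, 27.6 and 34.6 CPM against 26.5 to 33.1 CPM in WT, so replicates 2 and 3 lay within the WT range, replicate 4 went against its label, and the log2 fold change was -0.15 (SE 0.19, edgeR adjusted p = 0.927). The counting unit is the whole gene, so reads from *Apex1* outside the floxed part and from undeleted cells are included.

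In WT callus the 10 genes were ordered by level per kilobase of exon. *Ccng1*, encoding cyclin G1, had the highest mean on every day, at 37.9, 40.8, 37.7 and 35 CPM per kb at 3-, 6-, 10- and 14-dpf. At 14-dpf its range overlapped that of *Cdkn1a*. *Cdkn1a*, which encodes the cyclin-dependent kinase inhibitor p21, moved from 13.9 ± 1.80 CPM per kb (SD, n = 4) at 3-dpf to 27.3 ± 3.05 CPM per kb (SD, n = 5) at 6-dpf. At 3-dpf it lay among *Phlda3* and *Trp53inp1*, with overlapping ranges, and from 6-dpf it stood second.

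*Trp53* and *Mdm2* were neighbours in the middle of the order, at 10.2 and 9.65 CPM per kb at 3-dpf, and their ranges overlapped on every day but 10-dpf. *Zmat3* and *Sesn2* had means of 3.83 to 5.01 CPM per kb, with overlapping ranges on each day, and at 3-dpf *Eda2r* lay between them. *Ephx1* was lowest at 3-dpf, at 1.74 ± 0.135 CPM per kb (SD, n = 4). *Eda2r* was lowest from 6-dpf on, falling from a mean of 4.02 CPM per kb at 3-dpf to 2.20, 1.72 and 1.15 CPM per kb.

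**Figure D1:**
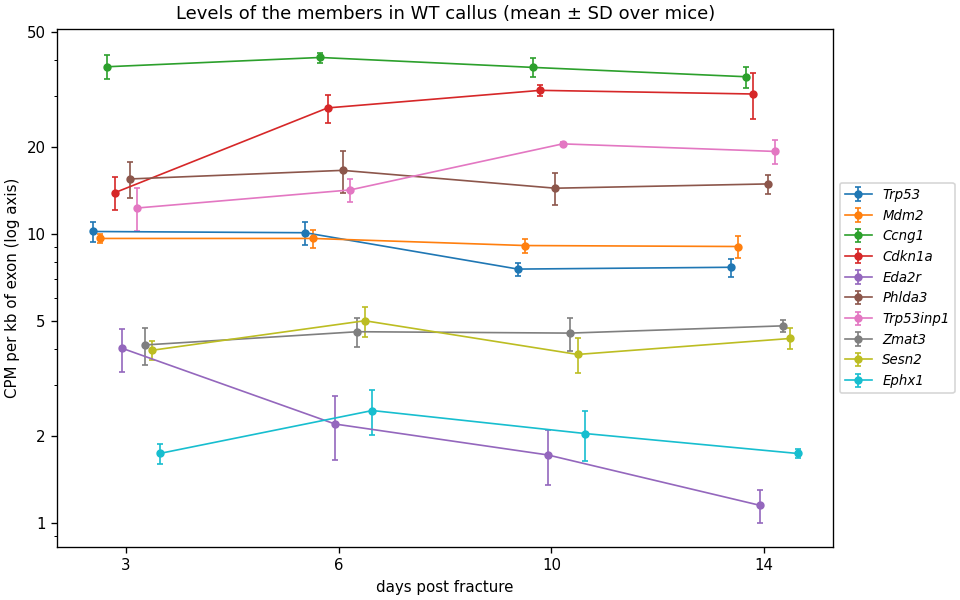
Mean level of each gene in WT callus against days post fracture, in CPM per kb of exon on a log axis, with bars of 1 SD over 4 or 5 mice. *Ccng1* is at the top on every day, *Cdkn1a* moves up between 3- and 6-dpf, and *Eda2r* moves down to 1.15 CPM per kb at 14-dpf.

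Changes with time in WT mice were tested between 3- and 6-dpf and between 10- and 14-dpf. The genes were chosen on genotype and not on these changes. The same WT mice entered that choice, so the tests are not fully independent of it. From 3- to 6-dpf, 1 of the 10 genes was higher and 1 lower, while 15.4% of all genes tested were higher and 15.1% lower, a share close to that among the 10. The 3-dpf sample was tibia cut out around the break and the 6-dpf sample was whole callus. Day and the tissue taken therefore cannot be told apart in this comparison. *Cdkn1a* rose from 87.8, 97.5, 76.8 and 73.7 CPM to 161, 161, 139, 188 and 175 CPM. Every mouse at 6-dpf was above every mouse at 3-dpf, with a log2 fold change of 0.95 (SE 0.29, edgeR adjusted p = 0.025). The call was lost without WT replicate 1, 3 or 4 of 3-dpf (adjusted p = 0.0515, 0.0673 and 0.0678), with library size alone as scaling (adjusted p = 0.0597) and with no low-count filter (adjusted p = 0.0715).

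*Eda2r*, which encodes a receptor of the tumor necrosis factor receptor family, fell from 29.6, 36.5, 24.0 and 30.4 CPM to 17.3, 19.2, 12.1, 21.3 and 12.5 CPM. Again the groups did not overlap, and the log2 fold change was -0.90 (SE 0.26, edgeR adjusted p = 0.0198). Leaving out WT replicate 2 of 3-dpf or WT replicate 3 or 5 of 6-dpf ended the call (adjusted p = 0.0822, 0.0564 and 0.0571), as did testing with no low-count filter (adjusted p = 0.0611). *Sesn2* and *Ephx1* had log2 fold changes of 0.32 (SE 0.13, edgeR adjusted p = 0.0705) and 0.48 (SE 0.20, edgeR adjusted p = 0.0909), also without overlap.

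From 10- to 14-dpf, edgeR called 0 of the 10 genes, beside 6.19% of all genes higher and 4.92% lower. Among all 19705 genes tested, 5011 had an unadjusted p under 0.05, and among the 10 only *Eda2r* did. Its WT values went from 11.3, 10.6, 16.8 and 12.9 CPM to 9.54, 8.96, 8.91 and 6.95 CPM, with no overlap, a log2 fold change of -0.63 (SE 0.20) and an edgeR adjusted p of 0.0593. DESeq2 called 1 gene here, *Eda2r*, with an adjusted p of 0.0258. The change from 6- to 10-dpf was not tested, because the form of the sample names changes there.

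Sex was tested over all 30 mice within groups. Of all genes tested, 0.262% were higher in females and 0.373% lower. edgeR called 0 of the 10 genes, and 2 had an unadjusted p under 0.05: *Phlda3*, with a log2 difference of -0.28, females minus males (SE 0.10, edgeR adjusted p = 0.206), and *Trp53inp1*, with 0.12 (SE 0.06, edgeR adjusted p = 0.301). Among all 20642 genes tested, 2989 had such a p. *Eda2r* lies on the X chromosome and had a log2 difference of -0.24 (SE 0.14, edgeR adjusted p = 0.454). DESeq2 also called 0 of the 10.

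Between genotypes, the fitted difference was above 0 for all 9 targets at 3-, 6- and 10-dpf and for 8 at 14-dpf, *Sesn2* being the exception, while that of *Trp53* was below 0. Counting the targets whose every P-Apex1KO mouse lay above every WT mouse gave 1 of 9 at 3-dpf, 7 at 6-dpf, 9 at 10-dpf and 4 at 14-dpf. Among all genes tested, 1.97%, 8.71%, 8.79% and 18.5% met the same condition on those days. Since this contrast chose the genes, nothing is read from the difference between those shares. The median log2 fold change of the 9 targets was 0.51, 0.82, 0.77 and 0.78 on the 4 days, and that of all genes tested was between 0 and 0.04.

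**Figure D2:**
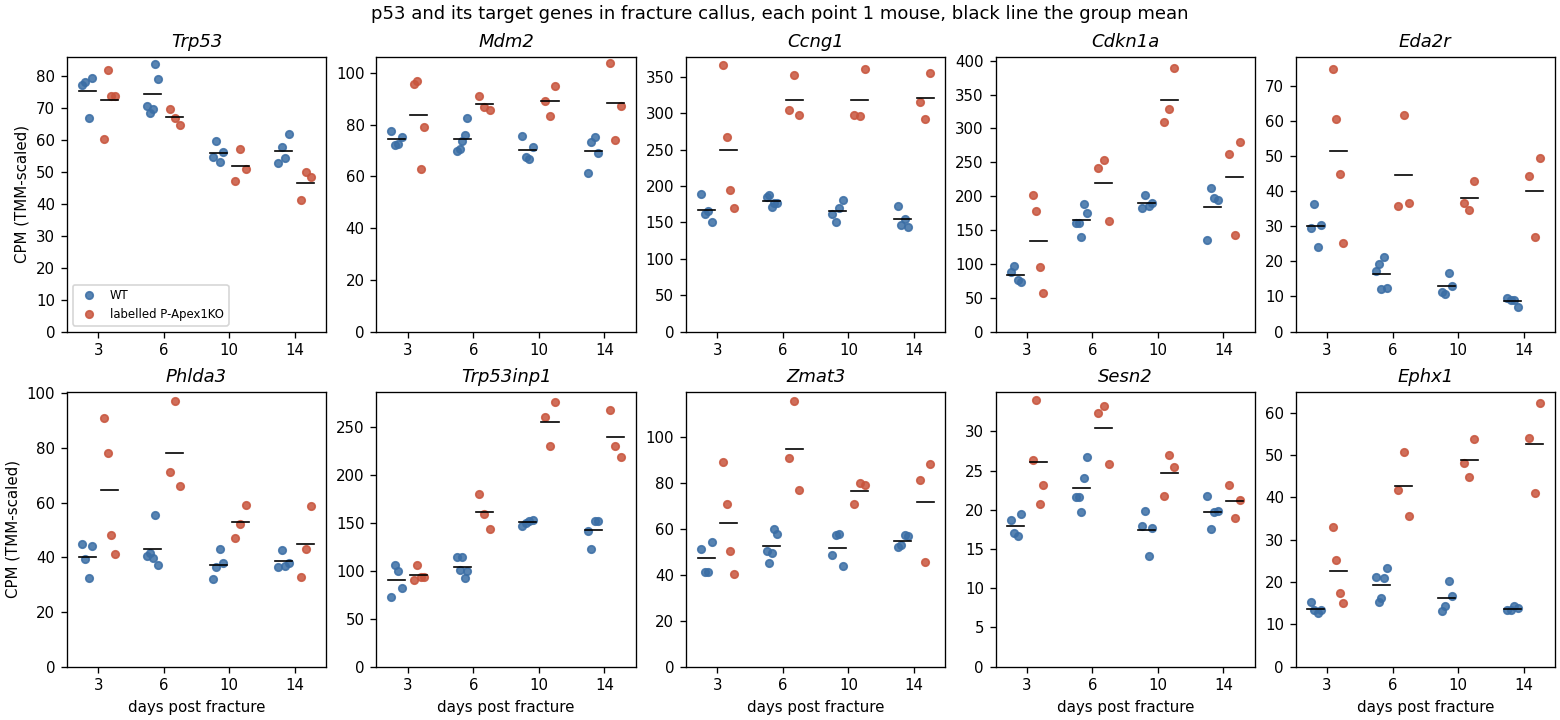
Level of each gene in each mouse (CPM after TMM scaling, axis from 0) by days post fracture; blue points are WT, red points are libraries labelled P-Apex1KO, and black lines are group means. The *Ephx1*, *Eda2r* and *Ccng1* points separate fully by genotype at 6-, 10- and 14-dpf, and the *Trp53* points lie close together or slightly lower in the knockout.

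The factor itself, *Trp53* (chr11:69469669-69482701), was at a similar or slightly lower mRNA level in P-Apex1KO callus. At 3-dpf WT mice had 77.2, 78.0, 66.8 and 79.5 CPM and the libraries labelled P-Apex1KO 60.4, 82.0, 73.8 and 73.7 CPM. At 6-dpf the values were 70.7, 68.4, 69.7, 83.8 and 79.0 CPM in WT and 69.6, 66.9 and 64.6 CPM in P-Apex1KO mice. The groups overlapped on both days.

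At 10-dpf WT mice had 54.5, 59.7, 53 and 56.1 CPM of *Trp53* and P-Apex1KO mice 47.1, 57.1 and 51.0 CPM. At 14-dpf WT mice had 52.6, 57.9, 54.2 and 61.7 CPM and P-Apex1KO mice 41.3, 50 and 48.5 CPM. Only at 14-dpf did all P-Apex1KO mice lie below all WT mice. Its log2 fold changes on the 4 days were -0.07 (SE 0.11), -0.12 (SE 0.09), -0.11 (SE 0.09) and -0.15 (SE 0.15). With library size alone as the scaling they were -0.12, 0.07, -0.03 and 0.12, so the direction at 6- and 14-dpf depended on the scaling, which moved the median of all genes to 0.20 and 0.31 on those days.

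The feedback genes come next. *Mdm2* (chr10:117524780-117546730), whose product is the ubiquitin ligase that degrades p53, had 69.6, 70.5, 73.5, 75.8 and 82.7 CPM in WT and 91.2, 86.9 and 85.5 CPM in P-Apex1KO mice at 6-dpf. At 10-dpf it had 75.5, 67.5, 66.8 and 71.4 CPM in WT and 89.1, 83.5 and 95.0 CPM in P-Apex1KO mice. All knockout mice were above all WT mice on both days, by log2 fold changes of 0.28 (SE 0.08) and 0.36 (SE 0.08). At 14-dpf the knockout values were 104, 73.9 and 87.1 CPM against 61.4 to 75.2 CPM in WT, and replicate 2 lay within the WT range (log2 fold change 0.55, SE 0.17). The 3-dpf values were 95.8, 96.7, 63.0 and 79.2 CPM against 72.0 to 77.7 CPM in WT, with replicate 3 below the WT mice (log2 fold change 0.09, SE 0.12).

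*Ccng1* (chr11:40639377-40646148) encodes cyclin G1, which recruits a phosphatase to MDM2. WT values lay in a narrow band, 143 to 189 CPM over all 4 days. P-Apex1KO mice had 305, 352 and 297 CPM at 6-dpf, 298, 296 and 360 CPM at 10-dpf, and 316, 292 and 355 CPM at 14-dpf. Each was above the WT band, and the log2 fold changes were 0.84 (SE 0.10), 0.92 (SE 0.09) and 0.93 (SE 0.14). The 3-dpf libraries labelled P-Apex1KO had 366, 267, 195 and 169 CPM, of which only replicate 4 was within the WT range of that day, 151 to 189 CPM (log2 fold change 0.51, SE 0.24).

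The arrest gene *Cdkn1a* (chr17:29309936-29319701) was uneven among knockout mice. At 3-dpf the WT mice had 73.7 to 97.5 CPM and the libraries labelled P-Apex1KO 202, 178, 95.4 and 56.9 CPM, so 2 were above WT, 1 within and 1 below. At 6-dpf WT mice had 139 to 188 CPM and P-Apex1KO mice 242, 254 and 163 CPM. Replicate 3 of that day lay within the WT range.

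At 10-dpf the *Cdkn1a* groups separated, with 183, 201, 186 and 190 CPM in WT and 310, 329 and 389 CPM in P-Apex1KO mice. At 14-dpf WT mice had 135, 212, 197 and 194 CPM and P-Apex1KO mice 262, 142 and 280 CPM, and replicate 2 was again within the WT range. The log2 fold changes were 0.60 (SE 0.42), 0.44 (SE 0.15), 0.85 (SE 0.10) and 0.78 (SE 0.35) from 3- to 14-dpf, so the standard error was smallest at 10-dpf.

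Of the genes tied to cell death and survival, *Eda2r* (chrX:96320270-96420847) had the greatest difference of the 10 genes at 14-dpf. P-Apex1KO mice had 35.8, 61.7 and 36.7 CPM at 6-dpf, 36.7, 34.6 and 42.9 CPM at 10-dpf, and 44.3, 26.9 and 49.5 CPM at 14-dpf. WT mice, whose values are given above, stayed at or below 21.3 CPM on these days. The log2 fold change was 0.74 (SE 0.34) at 3-dpf, 1.34 (SE 0.18) at 6-dpf, 1.54 (SE 0.14) at 10-dpf and 2.10 (SE 0.36) at 14-dpf, the last a 4.29-fold difference. Group means from 3- to 14-dpf were 30.1, 16.5, 12.9 and 8.59 CPM in WT and 51.5, 44.7, 38.1 and 40.2 CPM in the libraries labelled P-Apex1KO, and whether the courses differ was not tested. At 3-dpf the libraries labelled P-Apex1KO had 75.0, 60.6, 45.0 and 25.4 CPM, and only replicate 4 was within the WT range.

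*Trp53inp1* (chr4:11156412-11175230) encodes a nuclear protein that promotes p53-dependent death and autophagy. At 3-dpf its groups coincided, with 72.6 to 106 CPM in WT and 90.3 to 106 CPM in the libraries labelled P-Apex1KO. At 6-dpf the knockout mice had 180, 159 and 144 CPM against 92.6 to 114 CPM in WT. At 10-dpf they had 260, 230 and 276 CPM against 147 to 153 CPM, and at 14-dpf 268, 230 and 219 CPM against 123 to 152 CPM. The log2 fold changes were 0.16 (SE 0.11), 0.70 (SE 0.09), 0.77 (SE 0.08) and 0.79 (SE 0.17), and from 6-dpf the groups did not overlap.

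*Phlda3* (chr1:135693809-135697686), whose product restrains AKT signalling, had its greatest difference at 6-dpf. WT mice had 37.3 to 55.5 CPM and P-Apex1KO mice 71.2, 97.1 and 66.2 CPM, a log2 fold change of 0.82 (SE 0.13). At 10-dpf it was 0.47 (SE 0.09), with 47.1, 52.2 and 59.1 CPM above a WT range of 31.9 to 43.1 CPM, and at 14-dpf 0.33 (SE 0.29), when knockout mice had 32.9, 43.2 and 58.6 CPM around a WT range of 36.4 to 42.8 CPM. The libraries labelled P-Apex1KO had 91.0, 78.0, 48.1 and 41.2 CPM at 3-dpf against 32.6 to 44.8 CPM in WT, with replicate 4 inside that range (log2 fold change 0.57, SE 0.24).

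*Zmat3* (chr3:32388941-32420163), an RNA-binding zinc finger protein gene, also had its greatest difference at 6-dpf. Knockout mice had 91.2, 116 and 77.3 CPM at 6-dpf against 45.2 to 59.9 CPM in WT, and the log2 fold change was 0.87 (SE 0.14). It was 0.56 (SE 0.11) at 10-dpf, with 70.8, 80.1 and 79.1 CPM against 44.1 to 57.9 CPM. At 14-dpf it was 0.49 (SE 0.32), with knockout replicate 2, at 45.7 CPM, below the WT mice. The 3-dpf libraries labelled P-Apex1KO had 89.1, 71.1, 50.4 and 40.4 CPM against 41.4 to 54.6 CPM in WT, so 2 were above the WT mice, 1 within and 1 below (log2 fold change 0.32, SE 0.22).

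The last 2 targets serve stress metabolism. *Ephx1* (chr1:180803775-180848537), the microsomal epoxide hydrolase, was apart between genotypes from 6-dpf on. WT mice had 13.4, 13.3, 14.3 and 13.9 CPM at 14-dpf and P-Apex1KO mice 54.1, 41.1 and 62.4 CPM, a 3.98-fold difference and a log2 fold change of 1.99 (SE 0.24). At 10-dpf WT mice had 13.1, 14.3, 20.3 and 16.8 CPM and knockout mice 48.1, 44.9 and 53.7 CPM, a log2 fold change of 1.58 (SE 0.12). No overlap was seen on either day, nor at 6-dpf, when WT mice had 15.3 to 23.4 CPM and knockout mice 41.8, 50.8 and 35.5 CPM (log2 fold change 1.20, SE 0.16). Already at 3-dpf, 3 of the 4 libraries labelled P-Apex1KO, at 32.9, 25.2 and 17.3 CPM, exceeded the WT range of 12.7 to 15.2 CPM, and replicate 4 was at 15 CPM (log2 fold change 0.64, SE 0.24).

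*Sesn2* (chr4:132219335-132237815) encodes a sestrin that restrains mTORC1 under stress. It was the one target whose libraries labelled P-Apex1KO, at 26.3, 34.0, 20.8 and 23.1 CPM, all exceeded WT at 3-dpf, where WT had 16.7 to 19.4 CPM. The log2 fold change was 0.46 (SE 0.13) at 3-dpf, 0.46 (SE 0.12) at 6-dpf and 0.53 (SE 0.13) at 10-dpf. At 14-dpf it was -0.01 (SE 0.15), with 23.1, 18.9 and 21.3 CPM in knockout mice and 17.6 to 21.7 CPM in WT, so the groups overlapped. With library size alone as scaling the 14-dpf value was 0.26 and all knockout mice were above all WT mice, while the median of all genes was 0.31 under that scaling.

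At 14-dpf the fitted differences of all 10 genes rest on 1 female WT mouse, replicate 1, since every knockout mouse was female. Without the sex term the log2 fold changes were 0.35 instead of 0.78 for *Cdkn1a*, 0.38 instead of 0.55 for *Mdm2*, 0.14 instead of -0.01 for *Sesn2* and -0.24 instead of -0.15 for *Trp53*. For *Eda2r*, *Ephx1*, *Ccng1* and *Trp53inp1* they were 2.27, 1.97, 1.10 and 0.79, and for *Zmat3* and *Phlda3* 0.42 and 0.26. The female WT mouse was the lowest WT mouse of the day for *Cdkn1a*, at 135 CPM against 194 to 212 CPM, and for *Mdm2*, at 61.4 CPM against 69.2 to 75.2 CPM. It had 13.4 CPM of *Ephx1*, 9.54 CPM of *Eda2r* and 172 CPM of *Ccng1*, the first within the range of the 3 WT males of that day and the others above it, and the 3 knockout mice were above it for each of these genes.

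**Figure D3:**
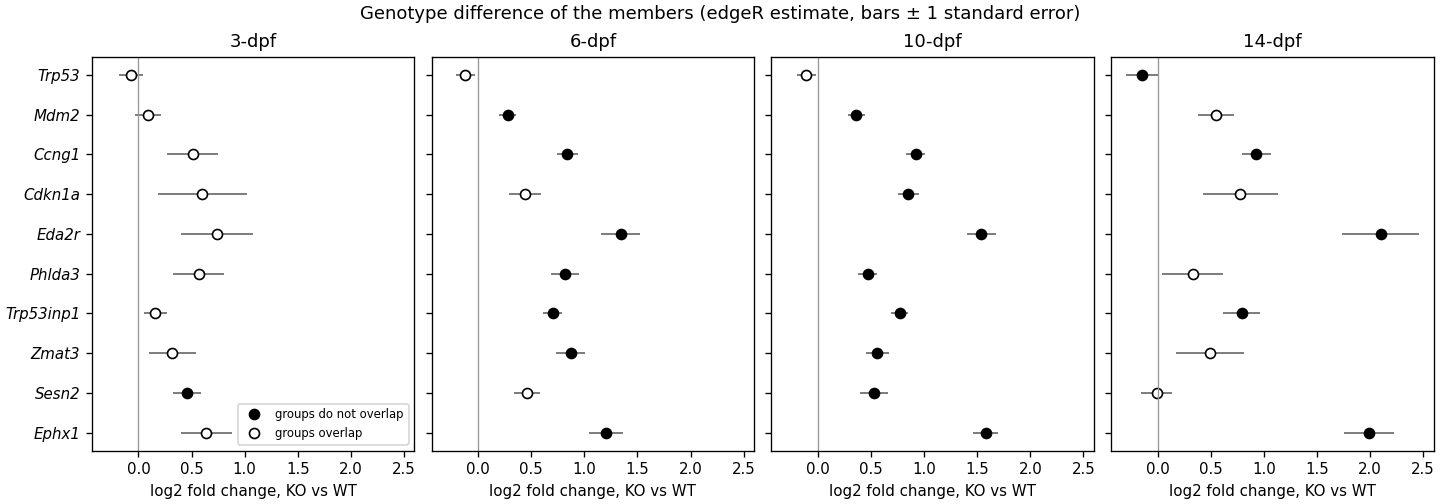
Log2 fold change of each gene, P-Apex1KO against WT, at each time point, with sex in the model and bars of 1 standard error; filled points mark genes whose groups do not overlap. The 9 targets lie right of 0 at 6- and 10-dpf, *Eda2r* and *Ephx1* reach 2.10 and 1.99 at 14-dpf, and *Trp53* stays near 0.

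The knockout mice of a day did not all show the pattern to the same extent. A score, the mean over the 9 targets of the log2 level against the WT mean of the day, was -0.13 to 0.14 in the WT mice. It was 0.75, 0.96 and 0.54 in P-Apex1KO mice at 6-dpf, 0.77, 0.80 and 0.98 at 10-dpf, and 0.89, 0.49 and 0.99 at 14-dpf. At 3-dpf the scores of the libraries labelled P-Apex1KO were 0.90, 0.76, 0.20 and -0.03. The log2 level of *Apex1* in these 4 libraries, in the same order, was -0.71, -0.06, -0.13 and 0.19 against the WT mean, so the order of replicates 2 and 3 was not the reverse of that of the scores.

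Replicate 1 of these libraries also stood apart in its markers, with mean log2 levels against WT of -3.47 for B lineage, -2.66 for erythroid, -2.45 for osteoblast, -2.36 for neutrophil, -0.81 for mitosis and 1.52 for skeletal muscle markers. Replicate 2, the other library with a high score, had -2.27 for B lineage, -1.57 for adipocyte and -0.99 for cartilage markers, and replicate 1 had -0.94 for cartilage, where WT mice had -0.98 to 0.89, -0.52 to 0.46 and -0.42 to 0.23 for these 3 lists. Replicate 2 was above the WT mice for erythroid markers, at 1.43 (WT -1.55 to 0.92), and for neutrophil markers, at 0.74 (WT -0.56 to 0.33). Replicate 1 was below the WT mice for both lists. The part of this in their target levels was not tested. The median log2 fold change of the 9 targets at 3-dpf was 0.38 without replicate 1, 0.46 without replicate 2, 0.66 without replicate 3 and 0.65 without replicate 4, instead of 0.51, and without replicate 1 or without replicate 2 the groups of *Sesn2* alone were apart, as with all libraries.

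Without replicate 4, 5 of the 9 targets instead of 1 had all libraries labelled P-Apex1KO above all WT mice at 3-dpf (*Ccng1*, *Eda2r*, *Phlda3*, *Sesn2* and *Ephx1*). With all libraries 1.97% of all genes met that condition. Without WT replicate 1 the count of targets was 3, leaving out P-Apex1KO-labelled replicate 3 gave 2, and with library size alone as scaling it was 2. At 14-dpf the count was 7 instead of 4 without P-Apex1KO replicate 2, and 18.5% of all genes met the condition with all mice. At 6- and 10-dpf leaving out any single mouse gave 7 to 9 and 9, and with all mice 8.71% and 8.79% of all genes met the condition. The shares of all genes with a mouse left out, or with library size alone, were not counted. With fewer mice the condition is easier to meet for any gene, so nothing is read from these changes in count.

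**Figure D4:**
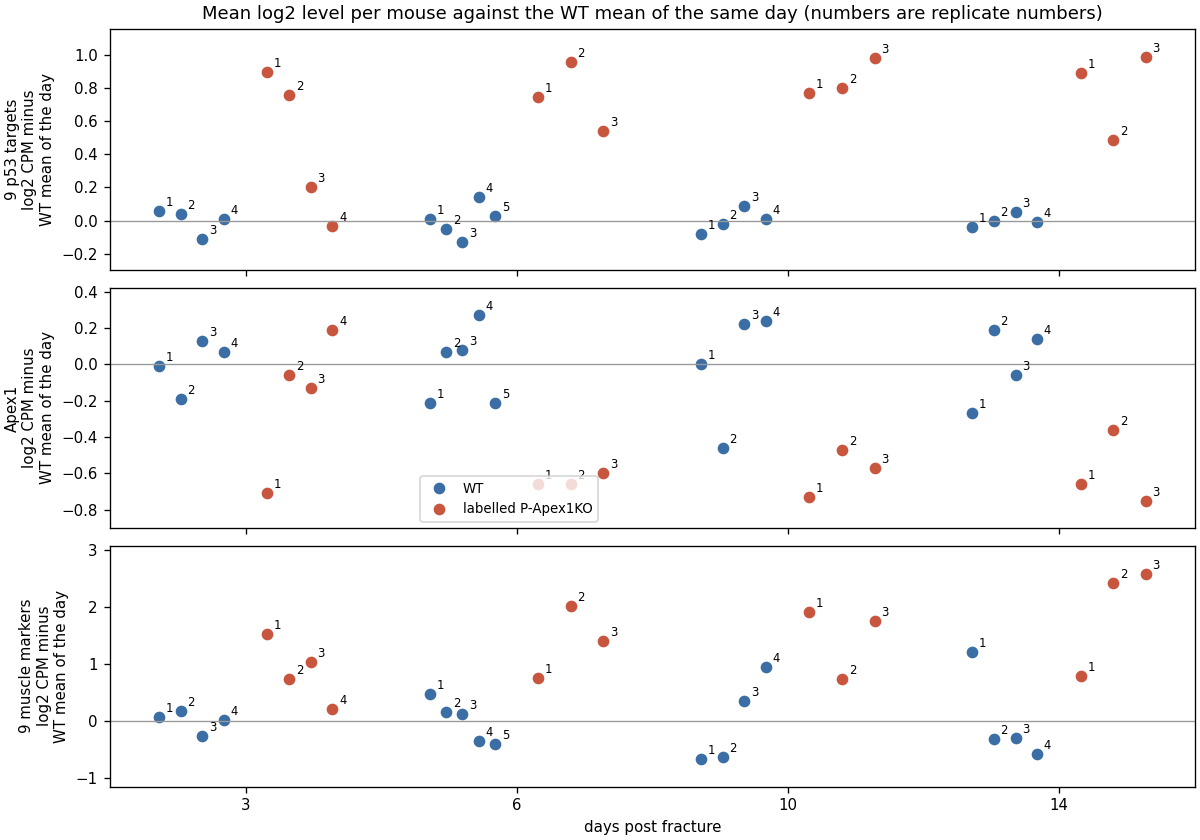
Mean log2 level per mouse against the WT mean of the same day for the 9 p53 targets, *Apex1* and 9 skeletal muscle markers, by days post fracture; numbers beside points are replicate numbers. At 3-dpf the target scores of the libraries labelled P-Apex1KO spread from -0.03 to 0.90, and from 6-dpf all knockout mice are at 0.49 or above.

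Markers of other cell types moved with genotype too (edgeR, adjusted p under the threshold of 0.05). At 6-dpf, 8 of 9 skeletal muscle markers were higher and 8 of 8 cartilage markers lower in P-Apex1KO callus, while 5 of 6 osteoblast markers were lower and 5 of 6 macrophage and 3 of 4 adipocyte markers higher. The summed level of the muscle markers was 5524 to 10169 CPM in WT and 12160 to 26830 CPM in knockout mice at 6-dpf, and that of the cartilage markers was 32861 to 58861 CPM and 2753 to 4665 CPM. The summed muscle level was 6869 to 9157 CPM and 8331 to 22166 CPM at 3-dpf, 3725 to 8388 CPM and 7150 to 22549 CPM at 10-dpf, and 2838 to 10018 CPM and 10361 to 31196 CPM at 14-dpf, in WT mice and then in those labelled P-Apex1KO. On these other days edgeR called 0 of 9 muscle markers in either direction.

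At 10-dpf, 4 of 6 osteoblast and 4 of 6 osteoclast markers were lower in knockout callus, and 4 of 6 macrophage and 4 of 4 adipocyte markers higher. At 14-dpf, 6 of 6 osteoclast and 3 of 6 osteoblast markers were lower, and 7 of 8 cartilage (the other one lower), 4 of 8 mitosis, 4 of 6 erythroid and 5 of 7 neutrophil markers higher, and 4 of 6 macrophage markers were higher and 2 lower. The cartilage calls rest on the female WT mouse, whose cartilage score was -1.47 against 0.37 to 0.73 in the WT males. The summed cartilage level overlapped, at 3615 to 10610 CPM in WT and 6861 to 10327 CPM in the knockout, and no cartilage marker had all knockout mice above all WT mice. At 3-dpf edgeR called 0 markers of the 13 lists, while 1 of 5 B lineage markers was higher at 6-dpf and 3, 1 and 1 of 5 T and NK markers were higher at 6-, 10- and 14-dpf. At 14-dpf all 5 markers of both lists had every knockout mouse above every WT mouse. Endothelial markers were lower for 1 of 5 at 10-dpf and 2 of 5 at 14-dpf, and limb mesenchyme markers for 2 of 5 on each of those days. No marker of these lists was at 0 in a group. The part of these cells in the levels of the p53 targets was not tested.

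Mouse by mouse, the mean log2 level of the muscle markers against the WT mean of the day was 1.52, 0.73, 1.03 and 0.20 in the libraries labelled P-Apex1KO at 3-dpf, 0.76, 2.02 and 1.41 at 6-dpf, 1.92, 0.73 and 1.75 at 10-dpf, and 0.78, 2.43 and 2.59 at 14-dpf. The target scores above are in the same order of replicates. In WT mice it was -0.26 to 0.18, -0.40 to 0.48, -0.67 to 0.95 and -0.58 to 1.21 on the 4 days. The value of 1.21 was that of the female WT mouse at 14-dpf, on which the fit of that day rests. The WT males of that day had -0.58 to -0.31.

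How the 10 genes varied together was described over the 30 samples after the mean of each group was removed. The points share library, depth and tissue composition. The 36 pairs among the 9 targets had a median Pearson correlation of 0.55, from -0.29 to 0.83, and 32 were above 0. With the libraries labelled P-Apex1KO of 3-dpf left out, the median was 0.34 over 26 samples. *Trp53* against the 9 targets had a median of -0.12, with 2 of 9 above 0. Among the targets, *Trp53inp1* followed the mean of the 9 least, at 0.05, and *Cdkn1a* most, at 0.93, each being part of that mean.

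Over the 30 samples with group differences kept, the genes outside the 10 whose log2 CPM was most like the mean of the 9 targets were *Ano3* (r = 0.95), *Igsf9b* (0.91), *Inka2* (0.89), *Slc19a2* (0.87) and *Dcxr* (0.87). Within groups their correlations were 0.87, 0.76, 0.71, 0.90 and 0.80. Those most like *Cdkn1a* alone were *Ntn4* (r = 0.85), *Entrep1* (0.85), *Tfcp2l1* (0.82), *A930001C03Rik* (0.82) and *Nalcn* (0.81), all with lower values within groups, from 0.35 for *Tfcp2l1* to 0.66 for *Ntn4*.

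The rest of the pathway, 68 listed genes that the choice of the 10 did not use, was tested for genotype. This list was also drawn up with earlier results of these data known, so it was not fixed in advance of them. At 3-dpf edgeR called 0 of 67 tested, as it called 0% of all genes higher and 0% lower. There were 10 of the 67 (14.9%), and 1216 genes in all (6.12%), at an unadjusted p under 0.05. DESeq2 also called 0 of the 67 but 85 of all genes. At 6-dpf 13 of 67 (19.4%) were higher and 0 lower, where 5.31% of all genes were higher and 5.61% lower. At 10-dpf 10 of 66 (15.2%) were higher and 0 lower, beside 3.01% and 3.44% of all genes. At 14-dpf 7 of 67 (10.4%) were higher and 0 lower, beside 4.28% and 7.04%.

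Of the 67 genes, 27, and of the 66, 28, had an unadjusted p under 0.05 at 6- and 10-dpf, and 16 did at 14-dpf. Those were 40.3%, 42.4% and 23.9%, where 26.2%, 24.3% and 27.6% of all genes had such a p, so at 14-dpf the share of the listed genes was not above that of all genes. The median log2 fold change of the listed genes was 0.10, 0.21, 0.16 and 0.24 on the 4 days, next to 0 to 0.04 for all genes. These counts shifted with single mice, as did the calls over all genes. With library size alone as scaling the 6-dpf count was 27 instead of 13, with 3594 instead of 2212 calls over all genes, and DESeq2, the fit without the sex term and the fit of all samples in one model each called 2 lower at 6-dpf. The 10-dpf count of 10 was 5 without the sex term and 16 with no low-count filter, with 750 and 1818 calls over all genes. The 14-dpf count of 7 was 13 with library size alone and 19 with all samples in one model, with 2644 and 6188 calls over all genes. The 6-dpf count fell from 13 to 5 without P-Apex1KO replicate 1 and to 7 without WT replicate 2. The 10-dpf count fell to 2 without WT replicate 1, 1 without WT replicate 2, and 2, 6 and 5 without P-Apex1KO replicates 1, 2 and 3. Over all genes the 10-dpf calls went from 1221 to 113 and 185 without WT replicates 1 and 2 and to 42, 1207 and 638 without P-Apex1KO replicates 1, 2 and 3, and the 6-dpf calls went from 2212 to 995 without P-Apex1KO replicate 1 and to 921 without WT replicate 2. The 14-dpf count was 3, 4 and 4 without WT replicates 2, 3 and 4, and 17 without P-Apex1KO replicate 2, with 1206, 1353, 1277 and 3773 calls over all genes. At 14-dpf the genotype difference with sex in the model rests on the 1 female WT mouse, and without the sex term 23 were higher and 4 lower, while the calls over all genes went from 2289 to 6849.

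**Figure D5:**
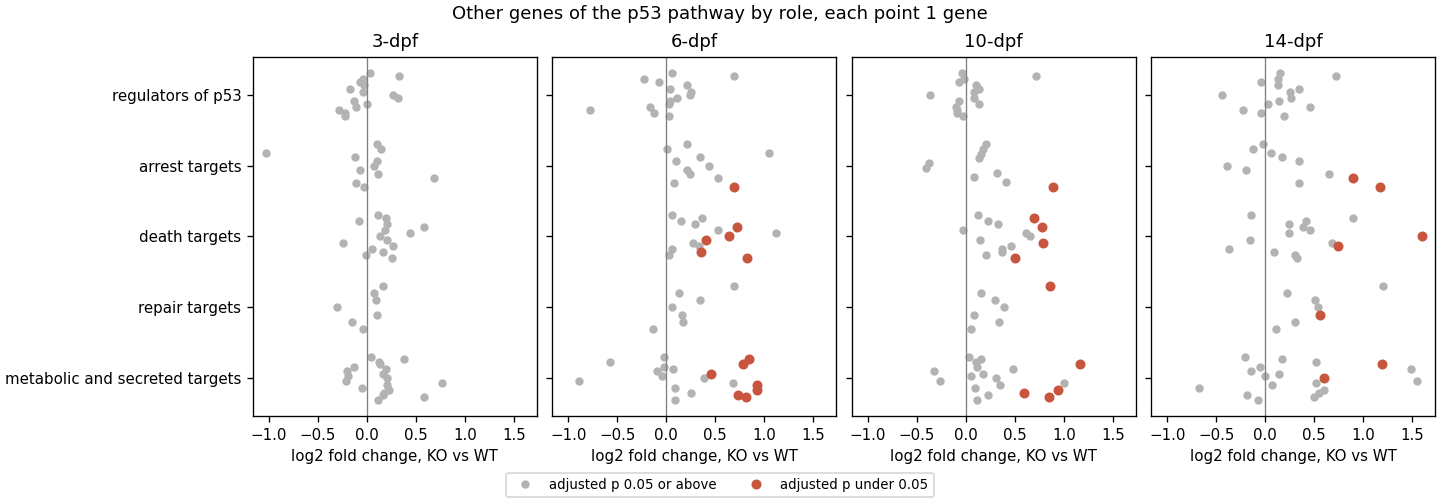
Log2 fold change, P-Apex1KO against WT, of each of the other p53 pathway genes at each time point, by role; red points passed an adjusted p of 0.05 and grey points did not. All red points lie right of 0 and none is a regulator of p53.

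Of all genes tested, 5.31%, 3.01% and 4.28% were called higher at 6-, 10- and 14-dpf, so a list of 7 to 19 genes would hold few calls at that share, and differences between roles were not tested. By role, 0 of 15 regulators of p53 (kinases, ligases and relatives such as *Atm*, *Chek2* and *Mdm4*) passed the edgeR test in either direction on any day, nor any by DESeq2, with 2, 1 and 2 at an unadjusted p under 0.05 from 6- to 14-dpf and 3 at 3-dpf. Death targets called higher numbered 5 of 15 at 6-dpf, 4 of 15 at 10-dpf and 2 of 15 at 14-dpf. The metabolic and secreted targets gave 7 of 19, 4 of 19 and 2 of 19. Arrest targets gave 1 of 11, 1 of 10 and 2 of 11, and DNA repair targets 0 of 7, 1 of 7 and 1 of 7. The 30 calls fell on 21 genes, of which 2, *Btg2* and *Slc19a2*, were called at 6-, 10- and 14-dpf and 14 on a single day.

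At 6-dpf the greatest log2 fold changes among the called genes were those of *Dcxr*, *Dglucy* and *Tigar*. *Dcxr*, a dicarbonyl and xylulose reductase, had 8.10 to 11.6 CPM in WT and 15.6 to 19.2 CPM in P-Apex1KO mice (log2 fold change 0.92, SE 0.14, edgeR adjusted p = 0.00469). *Dglucy*, D-glutamate cyclase, had 11.3 to 16.3 CPM and 20.8 to 26.9 CPM (log2 fold change 0.92, SE 0.15, edgeR adjusted p = 0.00538). *Tigar*, a fructose bisphosphatase that lowers glycolysis, had 9.50 to 11.2 CPM and 13.1 to 28 CPM (log2 fold change 0.84, SE 0.22, edgeR adjusted p = 0.036). None of the 3 overlapped between genotypes. The *Tigar* call was lost without WT replicate 2, 3 or 4 (adjusted p = 0.13, 0.0636 and 0.134), and its log2 fold change was 0.55 without P-Apex1KO replicate 2. The *Dcxr* call was lost without P-Apex1KO replicate 1 (adjusted p = 0.0571).

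At 10-dpf they were *Slc19a2*, *Dcxr* and *Btg2*. The thiamine transporter gene *Slc19a2* had 6.58 to 7.90 CPM in WT and 15.8 to 17.4 CPM in P-Apex1KO mice (log2 fold change 1.16, SE 0.11, edgeR adjusted p = 0.00509). *Dcxr* had 5.85 to 7.99 CPM and 11.7 to 16.6 CPM (log2 fold change 0.94, SE 0.15, edgeR adjusted p = 0.017). The antiproliferative gene *Btg2* had 58.3 to 80.6 CPM and 97.2 to 141 CPM (log2 fold change 0.89, SE 0.16, edgeR adjusted p = 0.0224). Here too the groups were apart. The *Btg2* call was lost without WT replicate 1 or 2 or P-Apex1KO replicate 1 or 3 (adjusted p = 0.0767, 0.0745, 0.179 and 0.057), and that of *Dcxr* without WT replicate 2 or P-Apex1KO replicate 1 (adjusted p = 0.0551 and 0.0935).

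At 14-dpf *Fas*, the death receptor gene, led with 4.57 to 5.90 CPM in WT and 11.9 to 14.7 CPM in P-Apex1KO mice (log2 fold change 1.60, SE 0.21, edgeR adjusted p = 0.00381). *Slc19a2* had 5.89 to 6.82 CPM and 10.9 to 14.6 CPM (log2 fold change 1.19, SE 0.23, edgeR adjusted p = 0.0166), and *Btg2* 52.7 to 77.7 CPM and 98.9 to 148 CPM (log2 fold change 1.17, SE 0.26, edgeR adjusted p = 0.03). None of these 3 overlapped between genotypes on that day, and the *Btg2* call was lost without WT replicate 2, 3 or 4 (adjusted p = 0.058, 0.06 and 0.0619). These fitted sizes rest on the 1 female WT mouse of that day. Without the sex term the log2 fold changes were 1.34 for *Fas*, 1.09 for *Slc19a2* and 0.83 for *Btg2*. *Fas* also fell in WT mice from 3- to 6-dpf (log2 fold change -0.35, SE 0.11, edgeR adjusted p = 0.0276) and from 10- to 14-dpf (log2 fold change -0.63, SE 0.14, edgeR adjusted p = 0.0102).

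Among the other pathway genes in WT mice, 8 of 67 were higher and 20 lower from 3- to 6-dpf, and 3 were higher and 6 lower from 10- to 14-dpf, next to the shares of all genes given above. The 3- and 6-dpf samples also differed in the tissue taken, as given above, which holds for *Fas* too. The 6 regulators lower from 3- to 6-dpf were *Atm*, *Atr*, *Chek1*, *Cop1*, *Mdm4* and *Prkdc*, and 1, *Cdkn2a*, was higher (log2 fold change 1.03, SE 0.35, edgeR adjusted p = 0.0371), all named after their values were seen. By sex, 0 of 67 were higher in females and 1 was lower.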

How the data were processed

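Total RNA of fracture callus from 30 mice was depleted of rRNA and sequenced as stranded libraries. The deposited values are raw read counts per gene: the authors aligned reads to mm39 with STAR 2.7.0d and counted them with featureCounts, per the submitters' processing notes and the methods of the study. Groups and sex came from the deposited labels. Symbols, positions and exon lengths came from GENCODE M39 on GRCm39, which held 54749 of 55416 gene IDs.

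From those counts, each day was fitted alone in edgeR 4.0.16 (R 4.3.3) with filterByExpr, TMM, genotype and sex, robust quasi-likelihood F tests, and p-values adjusted by Benjamini-Hochberg across every gene in the fit, threshold 0.05. WT time changes came from models of 2 days and 4 groups with sex, and the sex difference from a model of 8 groups. Standard errors are the size of the log2 fold change over the square root of F. DESeq2 1.42.0, other scalings and filters, a model without sex, a fit of all samples and leaving out each mouse were the alternatives, and the scripts were tested on simulated data. Printed CPM use 1 TMM scaling over 30 samples, and the fitted folds also hold the sex term, so at 14-dpf, where they rest on 1 female WT mouse, the fold of mean CPM can differ from the fitted one by much (*Cdkn1a*, 228 against 184 CPM and a fitted log2 fold change of 0.78). Depth per library was 18334389 to 43111491 counts, and the number of mice, 3 to 5 a group, limits the precision.

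The members and lists were chosen with earlier results of these data known. Named genes were the 10 members, *Apex1*, the 3 other pathway genes with the greatest log2 fold change among those called each day, the 5 genes most like *Cdkn1a* and the 5 most like the mean of the 9 targets among genes of at least 1 CPM, and markers. Of 81 marker symbols in 13 lists, 80 were found. No 2 libraries of the same group agreed within sampling noise. Whether mice with the same number shared a batch or litter is not given in the sources used here.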

Additional observations from a re-analysis of the deposited data

Results flagged for a closer look

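In 1 of 55 groups of 4 or 5 mice examined for the 10 genes and *Apex1*, a single mouse lay far from the others of its group. *Phlda3* was 55.5 CPM in WT replicate 4 at 6-dpf, where the other 4 WT mice had 37.3 to 41.7 CPM. By chance about 1 in 20 groups would show such a gap. All 3 P-Apex1KO mice of that day were above this mouse as well.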

How the results depend on the processing

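The log2 fold changes of the 9 targets by genotype stayed above 0 at 3-, 6- and 10-dpf under every alternative run, at 0.02 to 0.94, 0.22 to 1.51 and 0.31 to 1.70. At 14-dpf 77 of 81 values with all mice and 49 of 54 with 1 mouse left out were above 0, and the lowest was -0.06. Since this contrast in these same libraries chose the targets, nothing is read from these signs. *Trp53* at 14-dpf turned from -0.15 to 0.12 with library size alone. The 6-dpf count of other pathway genes that were higher, 13, was 27 with library size alone and 6 with a replicate block, and 5 to 14 with 1 mouse left out. The count that were lower, 0, was 2 with DESeq2, without the sex term, with at least 10 counts in every sample and with all samples in one model, and 1 with library size alone, with the top 20 genes left out and with no filter, and 0 to 1 with 1 mouse left out. At 10-dpf the higher count, 10, was 5 without the sex term, 16 with no filter, 6 with a replicate block and 1 to 9 with 1 mouse left out, and the lower count was 2 with no filter. At 14-dpf the higher count, 7, was 23 without the sex term, 13 with library size alone, 19 with all samples in one model and 3 to 17 with 1 mouse left out, and the lower count, 0, was 4, 3 and, with a replicate block, 1 instead, for the sex term, all samples and the block, and 0 to 1 with 1 mouse left out. In WT mice from 3- to 6-dpf, the count of the 10 genes that were higher, 1, was 3 with DESeq2 and with all samples in one model, 2 with at least 10 counts in every sample, 0 with library size alone and with no filter, and 0 to 3 with 1 mouse left out. The lower count, 1, was 3 with library size alone, 0 with no filter and 0 to 1 with 1 mouse left out. From 10- to 14-dpf the lower count, 0, was 1 with DESeq2, with library size alone and with a replicate block. Over all genes the calls from 3- to 6-dpf, higher and lower together, went from 6244 to 6735 with DESeq2. The calls over all genes under the other settings are not given here, so nothing is read from these counts of the 10 genes. Targets without overlap numbered 2 instead of 1 at 3-dpf, 9 instead of 7 at 6-dpf and 6 instead of 4 at 14-dpf with library size alone, and 1 to 5 at 3-dpf and 4 to 7 at 14-dpf with 1 mouse left out. These non-overlap alternatives were added after seeing the data. The share of all genes without overlap was not counted under them, so nothing is read from these counts. Library size alone moved the median of all genes to 0.20 at 6-dpf, 0.31 at 14-dpf and -0.27 in WT mice from 3- to 6-dpf. The causes of these shifts were not tested.

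Same-numbered mice of 13 pairs had correlations of -0.251 to 0.392, 5 of them over 0.1, so the numbers were not taken as pairs. With the replicate block the 6-dpf calls of *Dglucy* and *Tigar* were lost (adjusted p = 0.0524 and 0.102). The fit at 14-dpf without WT replicate 1 could not be made, since genotype and sex then coincide. Low-level genes such as *Ephx1* in WT mice carry more counting error than *Ccng1*.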
